A study of Mus musculus with 2 samples.

Results

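Levels of 54 genes of the primary cilium were measured by total RNA-seq of the facial prominence, the swellings that form the face, in mouse embryos of embryonic day 12.5. The genes encode the intraflagellar transport particles and their motors, the BBSome and its helpers, the transition zone, and proteins of the basal body and of ciliary hedgehog signalling. Many of their human counterparts are mutated in ciliopathies. They were taken by name, with earlier results of these data known. All 54 symbols matched a gene ID among 43346 mouse genes in the tables.

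The series held 1 group of 2 libraries and no contrast. The embryos were of strain B6NCrl, healthy, unmanipulated as far as the labels say, and of both sexes. Replicate 1 came from a pool of 120 embryos and replicate 2 from a pool of 88, and the labels tie both pools to the same donor entry. Each pool mixes all cell types and all swellings of the face, so fewer cells of a type and less RNA per cell cannot be told apart. The libraries summed to 27890681 expected counts (replicate 1) and 39969716 (replicate 2), and synthetic spike-in RNAs held 6.88% of the TPM in replicate 1 and 7.57% in replicate 2. All 5 markers of facial mesenchyme (Msx1, Prrx1, Prrx2, Pdgfra, Twist1) were present, with a summed 741 TPM in replicate 1 and 737 TPM in replicate 2. All 5 of surface epithelium summed to 302 and 315 TPM. None of 5 photoreceptor markers reached 1 TPM in both libraries. TPM is a level divided by transcript length and scaled to the same total in each library, and it allows genes of different length to be set side by side. Values are given per library, or as mean ± SD over the libraries (n = 2).

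The primary cilium is a single non-motile projection that grows from a centriole, the basal body, and stands on most cells of the embryo, those of the facial mesenchyme and ectoderm included. Trains of IFT-B and IFT-A particles move along its microtubules, outward on kinesin and back on dynein, while the BBSome carries membrane proteins and the transition zone gates the base. Hedgehog signalling in mammals passes through this organelle, and mouse embryos that lack ciliary genes in the neural crest can have a broad midface or clefts.

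In vertebrates and nematodes many ciliary genes are targets of RFX factors, which bind a palindrome called the X-box. RefSeq promoter windows of GRCm38.p6, from 250 bases before to 50 bases after the gene start, were present for 49 of the 54 members. Ift80, Ift81, Ift122, Dync2li1 and Tmem67 had no entry. A pair of arms, GTTNCC and GGNAAC with 0 to 3 bases between them, was found in 5 of 49 members (10.2%), against 0.896% of 16523 protein-coding promoter windows. The pair reads the same on both strands, so a search of 1 strand covers both. The 5 matches are shown because they are the only windows of members that hold the pair. Each is printed 5′ to 3′ on the strand of its gene, with up to 8 flanking bases, and the capitals mark the arms.
Bbs7: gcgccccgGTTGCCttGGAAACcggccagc
Ift57: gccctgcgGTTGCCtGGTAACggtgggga
Mks1: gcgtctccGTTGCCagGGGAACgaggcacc
Tctn1: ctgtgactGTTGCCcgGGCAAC
Tctn3: tcccagcgGTTGCCaGGTAACgggaacca

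All 5 shared the left arm GTTGCC, and they differed in the spacer and in the right arm. Ift57 and Tctn3 had a spacer of 1 base and the same right arm, GGTAAC. The Bbs7 stretch (chr3:36613489-36613518, minus strand) began its pair 121 bases before the gene start, and no gene of GENCODE M21 covers it. The Mks1 stretch (chr11:87853183-87853212, plus strand) began 24 bases before the start and was also intergenic. The Tctn3 stretch (chr19:40612351-40612379, minus strand) began 140 bases before the start. Only part of it lies in an exon of Entpd1, the neighbour on the other strand. The Ift57 stretch (chr16:49699226-49699254, plus strand) began 60 bases before the RefSeq start, and M21, which places the gene start further upstream, annotates the pair as exonic in Ift57. The Tctn1 stretch (chr5:122264411-122264432, minus strand) lies in its first exon, where the pair starts at base 37 counted from the gene start and reaches the end of the window. A single arm, GTTGCC or its reverse complement GGCAAC, was in 23 of 49 member windows (46.9%), against 14% of protein-coding windows. The 23 include the 5 with a pair. A match is a run of letters in a window and was not tested as a binding site.

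The 5 genes with the pair stood at different levels. Ift57, an IFT-B subunit, had 41.3 TPM in replicate 1 and 39.8 TPM in replicate 2. Mks1 had 17.2 and 16.4 TPM, Bbs7 14.7 and 16.5 TPM, Tctn3 11.3 and 12 TPM, and Tctn1 5.66 and 5.19 TPM. They lie between the low and the upper part of the range of the members.

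All 54 members reached 1 TPM in both libraries, against 61.8% of 21474 protein-coding genes. A level of 10 TPM in both was reached by 42 of 54 (77.8%), against 41.7% of protein-coding genes. As the members were chosen with earlier results of these data known, these shares are descriptions only. The median over the members was 17.5 TPM in replicate 1 and 17.9 TPM in replicate 2, or 17.7 ± 0.301 TPM, with quartiles of the mean levels at 11.7 and 32.1 TPM. The median over all protein-coding genes was 5.24 TPM, many of them silent here. Over the 13490 protein-coding genes with a mean of 1 TPM or more it was 21.3 TPM, with quartiles at 7.26 and 52.7 TPM. The members thus sat near the middle of the genes in use: their median percentile was 66.0 among all protein-coding genes and 45.9 among those at a mean of 1 TPM or more. Only Ift46, Ift20 and Kif3a lay above percentile 90, and only Bbs1, Cep290 and Intu lay below percentile 50. Together the members held 0.138% of all TPM in replicate 1 and 0.137% in replicate 2.

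**Figure D1:**
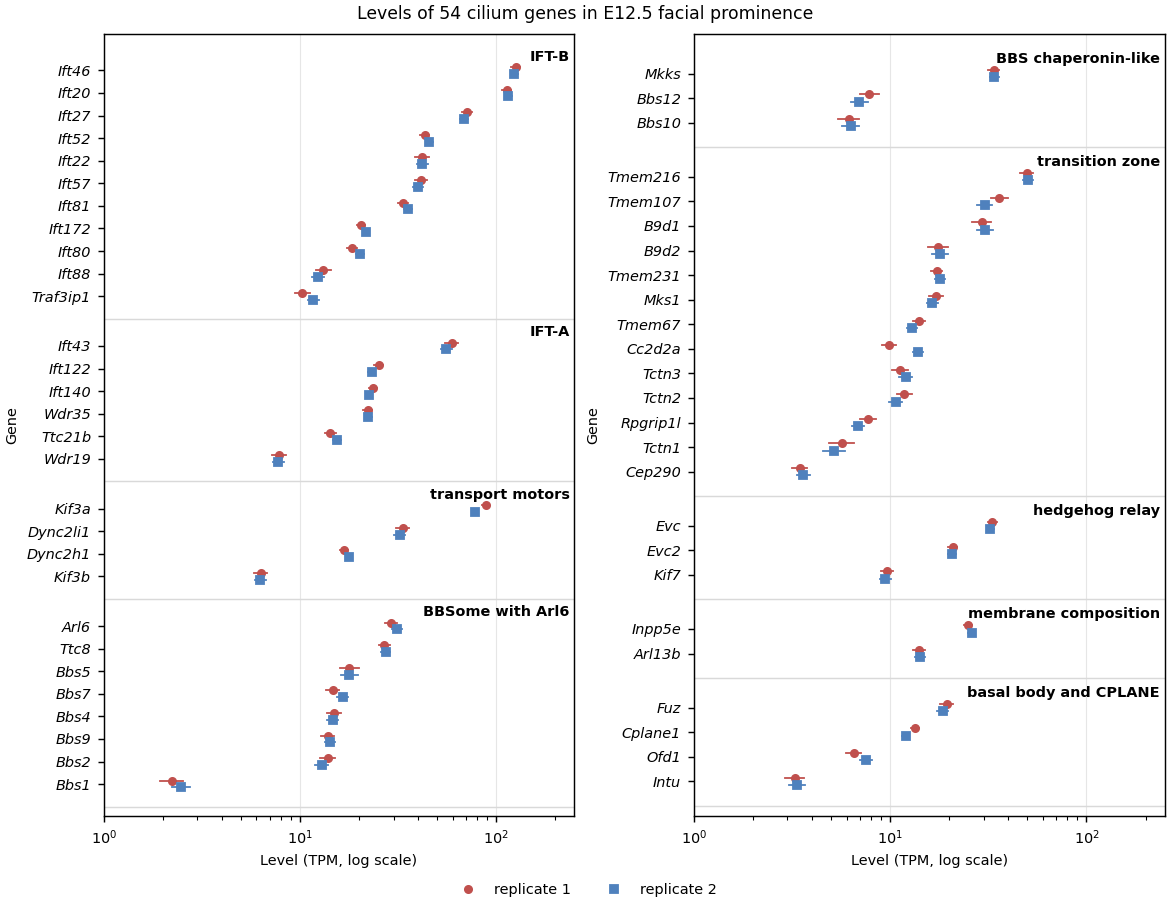
Level of each of the 54 members in TPM (log axis), by role group and ordered by mean level within it, with replicate 1 as circles, replicate 2 as squares and lines for the 95% counting interval. Ift46 is highest at 125 and 124 TPM, all 11 IFT-B members lie above 10 TPM, and Bbs1 is lowest at 2.23 and 2.48 TPM.

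IFT-B, the particle of outward transport, had the highest median of the 9 role groups. The median over its 11 members was 41.3 TPM in replicate 1 and 39.8 TPM in replicate 2, and all 11 reached 10 TPM in both. Ift46 (chromosome 9, 44767908 to 44793447, GRCm38) was the most abundant member of all 54, with 125 and 124 TPM from 1555 and 2181 reads. Of this, the 229-base transcript Ift46-209 held 42.8 TPM in replicate 1 and 41.3 TPM in replicate 2, and the rank rests on it. In reads, Kif3a was above Ift46, with 2538 and 3508. Ift20, a small subunit that also sits at the Golgi, had 113 TPM in replicate 1 and 115 TPM in replicate 2 (chromosome 11, 78536361 to 78541737). Ift27, which resembles Rab GTPases, followed at 69.5 ± 1.66 TPM. These 3 kept their order in both libraries, although the 95% counting intervals of Ift46 and Ift20 overlapped slightly in replicate 2 (118.5 to 128.9 TPM and 110.1 to 119.5 TPM). Below them lay a close cluster of Ift52 (44.4 ± 1.77 TPM), Ift22 (41.9 ± 0.219 TPM) and Ift57 (40.6 ± 1.04 TPM), whose counting intervals overlapped in replicate 1. In replicate 2 those of Ift52 (43.7 to 47.6 TPM) and Ift57 (37.6 to 42.2 TPM) were apart. Ift81, which helps bind tubulin cargo, stood at 34.5 ± 1.44 TPM. The large subunit Ift172 had 20.4 TPM in replicate 1 and 21.8 TPM in replicate 2. Ift80, mutated in human skeletal ciliopathy, had 18.4 and 20.2 TPM, close under Ift172. Ift88, the subunit mutated in a classical mouse model of polycystic kidney, had 13.2 and 12.3 TPM. Traf3ip1 was lowest of the group with 10.3 TPM in replicate 1 and 11.7 TPM in replicate 2. From Traf3ip1 to Ift46 the mean level differed 11.3-fold within a single particle.

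IFT-A, the particle of return transport, had a median of 22.8 TPM in replicate 1 and 22.4 TPM in replicate 2 over 6 members. Ift43, its smallest subunit, was highest with 59.2 TPM in replicate 1 and 55.5 TPM in replicate 2. Ift122 (24.1 ± 1.39 TPM), Ift140 (23.0 ± 0.742 TPM) and Wdr35 (22.2 ± 0.127 TPM) lay together, with overlapping values for Ift122 and Ift140. Ttc21b stood at 14.9 ± 0.778 TPM. Wdr19 was lowest with 7.85 and 7.77 TPM, the only IFT-A member under 10 TPM. The IFT-A median over the IFT-B median gave a log2 ratio of -0.86 in replicate 1 and -0.83 in replicate 2, short of the threshold of 1 used for pairs. In counts not divided by length the mean ratio was 0.19, so the direction of this ratio depended on scaling by length.

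Among the motors, the outward kinesin is built on the motor subunits Kif3a and Kif3b, and their levels were far apart. The 4 motor genes had a median of 25.06 TPM in replicate 1 and 24.995 TPM in replicate 2. Kif3a (chromosome 11, 53567379 to 53601967) had 88.3 TPM in replicate 1 and 78.2 TPM in replicate 2. Kif3b (chromosome 2, 153291413 to 153333390) had 6.30 and 6.28 TPM. The log2 ratio Kif3a over Kif3b was 3.72 ± 0.12, or 13.2-fold, and 2.04 in counts not divided by length. Short transcripts held part of the Kif3a level, with 29.5% of its TPM in replicate 1 and 31.3% in replicate 2 in the 770-base Kif3a-206. Of the return motor, Dync2h1, its heavy chain, had 16.8 TPM in replicate 1 and 17.8 TPM in replicate 2. Dync2li1, its light intermediate chain, had 33.4 and 32.2 TPM. Their log2 ratio, Dync2li1 over Dync2h1, was 0.93 ± 0.10 and fell short of the threshold, while in counts not divided by length it turned to -1.30 and passed the threshold in both libraries. Most of the Dync2h1 TPM lay in the 2892-base Dync2h1-202, with 58.2% in replicate 1 and 57.9% in replicate 2. The 14264-base Dync2h1-204 held 2.35 and 2.39 TPM, and the 13972-base Dync2h1-201 held 1.76 and 1.84 TPM. The ratio of the gene totals thus depends on the short transcript.

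Subunits of the BBSome, the coat that carries membrane proteins in and out of the cilium, stood mostly at similar levels, with Ttc8 above and Bbs1 below the rest. With Arl6, the GTPase that recruits the coat to membranes, the 8 genes had a median of 14.8 TPM in replicate 1 and 15.6 TPM in replicate 2. Arl6 was highest with 28.9 and 31.1 TPM, and Ttc8 followed at 27.2 ± 0.332 TPM. Bbs5, Bbs7, Bbs4, Bbs9 and Bbs2 had means between 13.4 and 17.8 TPM. Bbs1 stood apart with 2.23 TPM in replicate 1 and 2.48 TPM in replicate 2 (chromosome 19, 4886878 to 4906628), the lowest level of all 54 members. It was read from 214 and 337 counts over 1 annotated transcript with an effective length of 5482 bases.

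The chaperonin-like proteins Mkks, Bbs10 and Bbs12 help to assemble the BBSome. Mkks had 33.6 TPM in replicate 1 and 34.0 TPM in replicate 2. Bbs12 had 7.83 and 6.98 TPM. Bbs10 had 6.15 and 6.31 TPM. Mkks over Bbs12 gave a log2 ratio of 2.19 ± 0.13, past the threshold in both libraries, while Bbs10 over Bbs12 gave -0.25 ± 0.14 and did not pass. Most of the Mkks level came from a transcript not typed as protein-coding, at 54.7% of its TPM in replicate 1 and 62.9% in replicate 2. The call of Mkks over Bbs12 rests on that transcript. The protein-coding Mkks-202 and Mkks-201 held 14.5 and 0.74 TPM in replicate 1, and 11.4 and 1.23 TPM in replicate 2.

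The transition zone, the gate between basal body and shaft, was the largest group with 13 members, and its median was 14.0 TPM in replicate 1 and 13.9 TPM in replicate 2. Its highest members were small membrane and B9-domain proteins. Tmem216 had 49.6 TPM in replicate 1 and 50.3 TPM in replicate 2. Tmem107 had 36.1 and 30.3 TPM. B9d1 had 29.4 and 30.4 TPM, against 17.6 and 18.0 TPM for its partner B9d2 and 17.2 and 16.4 TPM for Mks1, the third B9-domain protein. Neither ratio passed the threshold, with B9d1 over B9d2 at a log2 of 0.75 ± 0.02 and B9d1 over Mks1 at 0.83 ± 0.08. In counts not divided by length B9d1 over Mks1 was -0.85.

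Tmem231 (17.6 ± 0.467 TPM) and Tmem67, or meckelin (13.4 ± 0.778 TPM), are membrane proteins of the same gate. The tectonic proteins Tctn1, Tctn2 and Tctn3 are secreted or membrane-bound partners of that complex. Tctn1 was lowest with 5.66 and 5.19 TPM. Tctn2 had 11.8 TPM in replicate 1 and 10.7 TPM in replicate 2, and Tctn3 had 11.3 and 12 TPM. Tctn1 over Tctn2 gave a log2 ratio of -1.05 ± 0.01 and passed narrowly, while Tctn1 over Tctn3 gave -0.99 in replicate 1 and -1.21 in replicate 2 and did not pass in both. Cc2d2a, a coiled-coil and C2-domain protein, had 9.91 TPM in replicate 1 and 13.9 TPM in replicate 2. Rpgrip1l stood at 7.29 ± 0.629 TPM. Cep290, which links the ciliary membrane to the microtubules, had 3.47 and 3.61 TPM (chromosome 10, 100487558 to 100574840), the lowest of the group.

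Of the proteins that pass on the hedgehog signal, Evc and Evc2 hold smoothened at the base of the cilium, and Kif7 acts at its tip on Gli proteins. Evc had 33.1 TPM in replicate 1 and 32.4 TPM in replicate 2. Evc2 had 20.8 and 20.7 TPM. The partners differed by less than the threshold, with a log2 ratio of 0.66 ± 0.02. Kif7 had 9.68 and 9.47 TPM. Inpp5e, a phosphoinositide phosphatase of the ciliary membrane, had 24.99 TPM in replicate 1 and 26.01 TPM in replicate 2, and Arl13b, the GTPase that brings it there, had 14.0 and 14.2 TPM.

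Fuz, Intu and Cplane1 belong to the complex that readies the basal body for transport, and Ofd1 is a centriole protein mutated in oral-facial-digital syndrome. Fuz had 19.4 TPM in replicate 1 and 18.5 TPM in replicate 2. Its partner Intu had 3.26 and 3.37 TPM (chromosome 3, 40531286 to 40704774). Fuz over Intu gave a log2 ratio of 2.52 ± 0.08, or 5.72-fold. In counts not divided by length the mean was 1.05 and no longer past the threshold in both libraries. Transcripts that M21 does not list held 67.1% of the Fuz TPM in replicate 1 and 63.4% in replicate 2. The only listed one, the protein-coding Fuz-201, held 6.38 TPM in replicate 1 and 6.77 TPM in replicate 2. The call of Fuz over Intu in both libraries rests on the unlisted transcripts. Cplane1 stood at 12.7 ± 0.983 TPM and Ofd1 at 7.03 ± 0.700 TPM. The group median was 9.96 TPM in replicate 1 and 9.76 TPM in replicate 2, above that of the chaperonin-like genes, at 7.83 and 6.98 TPM.

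Level went with transcript length among the members. Across the 54 genes Spearman's rho between mean effective length and mean TPM was -0.66, against -0.25 across the 13490 protein-coding genes at a mean of 1 TPM or more. Both are descriptions across genes of the same libraries, and TPM divides by the length it is set against. The 12 members under 1500 bases had a median of 41.2 TPM, against 39.1 TPM for protein-coding genes of that length. The 21 members from 1500 to 3000 bases had 15.6 TPM, against 23.2 TPM. The 21 members of 3000 bases or more had 13.4 TPM, against 14.2 TPM. The fixed pair Ift20 over Ift172 shows the effect of the scale, since their effective lengths were 818 and 5308 bases. Its log2 ratio was 2.43 ± 0.05 in TPM and -0.27 in counts not divided by length, so more reads came from Ift172 (1893 in replicate 1, 2865 in replicate 2) than from Ift20 (1635 and 2293).

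**Figure D2:**
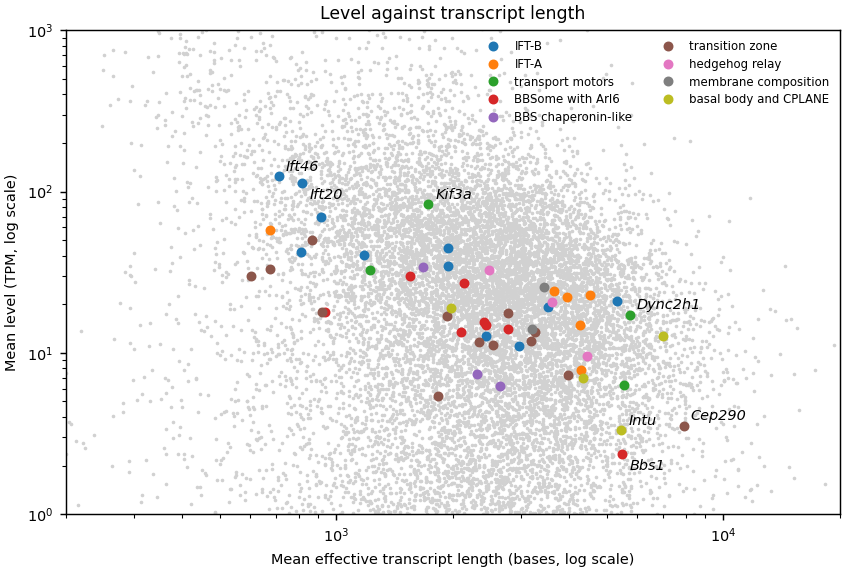
Mean level in TPM against mean effective transcript length in bases (both log axes), with members coloured by role group and protein-coding genes at a mean of 1 TPM or more in grey. Short members such as Ift46 and Ift20 stand at the top left and long ones such as Cep290 at the bottom right, with a Spearman's rho of -0.66 over the 54 members.

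The libraries gave nearly the same levels. None of the 54 members was higher in replicate 1 by more than 0.5 on the log2(TPM + 1) scale, against 1.28% of protein-coding genes at a mean of 1 TPM or more, and none was higher in replicate 2 by more than that, against 1.1%. The median size of the log2 difference was 0.06 for members and 0.08 for those protein-coding genes, with 26 members higher in replicate 1 and 28 higher in replicate 2. In 44 members the libraries were within 10% of each other, but the share of protein-coding genes within that limit was not computed. The 95% counting intervals of the libraries were apart in 3 of 54 members (5.56%), against 20.8% of protein-coding genes at a mean of 1 TPM or more. The intervals narrow as counts rise, and those genes were not matched to the members by count, so the shares are not directly comparable. The intervals hold for counting error alone, as reads were not tagged per molecule and may be copies of each other. They also take the estimated effective length as fixed. The 3 members apart were Kif3a, Cplane1 and Cc2d2a. For Kif3a, replicate 1 minus replicate 2 was 0.17 on the log2(TPM + 1) scale and 0.05 in counts not divided by length. Its effective length was 1646 bases in replicate 1 and 1811 bases in replicate 2. For Cplane1 the differences were 0.15 and 0.11. Cc2d2a (chromosome 5, 43662346 to 43740972) had the largest difference, with 9.91 TPM (interval 9.12 to 10.7) in replicate 1 and 13.9 TPM (interval 13.0 to 14.7) in replicate 2. Replicate 1 minus replicate 2 was -0.45 on the log2(TPM + 1) scale and -0.30 in counts not divided by length, and its effective length was 3378 bases in replicate 1 and 2999 bases in replicate 2. Over the 17332 genes and spike-ins that passed a filter on low counts, the biological coefficient of variation between the libraries was 6.27%.

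**Figure D3:**
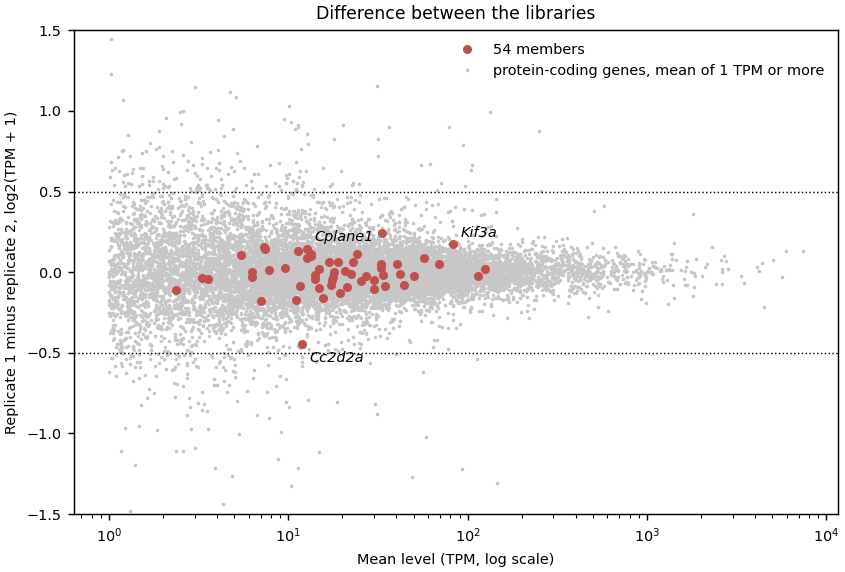
Difference between the libraries, replicate 1 minus replicate 2 in log2(TPM + 1), against mean level in TPM (log axis), with members in red, protein-coding genes at a mean of 1 TPM or more in grey, and dotted lines at 0.5 and -0.5. All 54 members lie between the lines, and Cc2d2a is nearest to one of them, at -0.45.

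Transcripts of several annotated types made up the levels of many members. The transcript tables held 257 transcripts of members, of which 13 were not in the annotation used for types, M21. The share of a gene's TPM in protein-coding transcripts had a median of 90.2% over the 52 members with nearly all TPM in M21 transcripts, against 98.2% over 13255 protein-coding genes chosen the same way. Retained-intron transcripts held 20% or more of the TPM in both libraries in 9 of 52 members (17.3%), against 10.8% of those protein-coding genes. The 9 were Tctn1, Mks1, Cplane1, Evc, Bbs5, Bbs2, Ift81, Traf3ip1 and Ift20, named after their values were seen. For Tctn1 the retained-intron share was 41.2% in replicate 1 and 34.1% in replicate 2, and for Mks1 46.5% and 33.4%.

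The smallest protein-coding shares were in 5 genes. Tctn2 had none, because M21 types the gene and its transcripts as noncoding, with 70.4% of its TPM in replicate 1 and 80.8% in replicate 2 in Tctn2-207, a processed transcript. Fuz had 32.9% and 36.6%, and the rest of its TPM came from transcripts that M21 does not list, so its share cannot be set beside those of other genes. Mkks had 45.3% in replicate 1 and 37.1% in replicate 2, with the processed transcript Mkks-203, of 810 bases, at 54.7% and 62.9%. Cc2d2a had 55.0% and 47.9%, and its leading transcript, at 44.3% and 33.5%, is not in M21. A retained-intron transcript of Cc2d2a, Cc2d2a-204, was at 0 TPM in replicate 1 and 2.39 TPM in replicate 2. Tctn1 had 58.8% in replicate 1 and 58.2% in replicate 2.

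**Figure D4:**
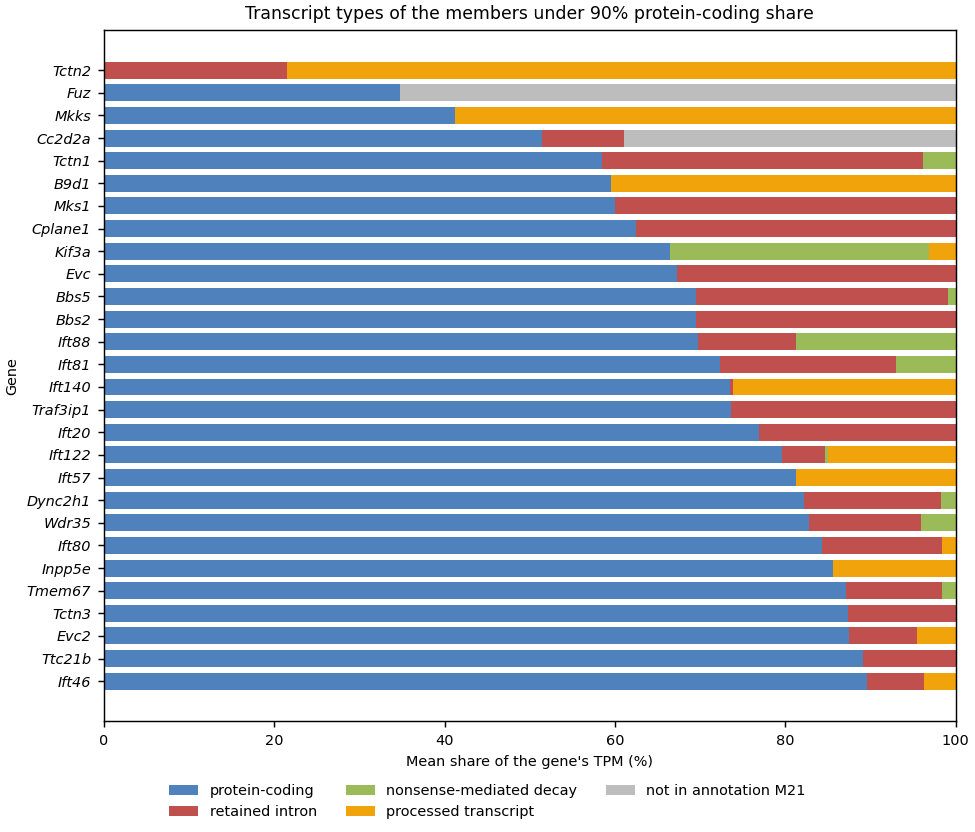
Mean share of each gene's TPM, in percent, by annotated transcript type for the 28 members with a protein-coding share under 90%, ordered from Tctn2 at 0% upward. Retained-intron transcripts are the main other type in most of these genes. Exceptions include processed transcripts in Tctn2 and Mkks, the nonsense-mediated decay type in Kif3a, and transcripts not in M21 in Fuz and Cc2d2a.

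The transcript with the most TPM differed between the libraries in 5 of the 40 members with several transcripts (12.5%), against 9.5% of 9833 such protein-coding genes. In Kif3a the lead was held in replicate 1 by Kif3a-206, a 770-base transcript of the nonsense-mediated decay type, with 29.5% against 31.3% in replicate 2. In replicate 2 it was held by the protein-coding Kif3a-201, with 20.9% in replicate 1 and 32.0% in replicate 2. Ift122 changed from Ift122-201 (45.9% in replicate 1, 31.7% in replicate 2) to Ift122-203 (31.3% and 49.6%). Tmem216 changed from Tmem216-202 (45.6% and 36.5%) to Tmem216-206 (38.2% and 48.8%). Ift57-204 and Ift57-203 were within a few percent of each other in both. Rpgrip1l changed from the 404-base Rpgrip1l-202 (49.9% in replicate 1, 35.9% in replicate 2) to the full-length Rpgrip1l-201 (47.3% and 60.9%). All leads but that of Kif3a-206 were protein-coding. These shares are estimates that split reads among overlapping transcripts, and gene totals of these 5 moved by less than the 0.5 threshold.

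Some members start back to back with another gene. A gene on the other strand that starts within 1000 bases and points away was found for 13 of 54 members (24.1%), against 10.9% of protein-coding genes. In 9 of the 13 the neighbour was protein-coding. The closest was Tnfaip1, 29 bases from Ift20, with 64.8 TPM in replicate 1 and 67.8 TPM in replicate 2. Arcn1, a coat protein gene 63 bases from Ift46, had 153 and 155 TPM. Neighbouring levels could also be far apart. Cep290, at 3.47 and 3.61 TPM, starts 208 bases from Tmtc3 with 20.1 TPM in replicate 1 and 21.02 TPM in replicate 2, and Rpgrip1l, at 7.73 and 6.84 TPM, starts 263 bases from Fto with 82.2 and 87.2 TPM. Dync2h1 starts 74 bases from Dcun1d5, which had 107 and 110 TPM, and Ift80 starts 168 bases from Smc4, which had 138 and 142 TPM. Mbd4, 99 bases from Ift122, was near it with 23.0 and 22.0 TPM. Just outside the distance, Evc and Evc2 are themselves such a pair, 1605 bases apart.

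Exons of 14 members overlap another annotated gene, and 5 of them by 10% or more of their exon bases. These were Mkks (29.3%, with AL731706.1 on the same strand), Fuz (24.1% with D7Bwg0826e and 14.4% with Ap2a1), Inpp5e (20.3% with Pmpca), Kif7 (19.1% with 9330171B17Rik) and Tctn1 (19.0% with Hvcn1). Strandedness is not in the labels, so reads over the shared exon bases cannot be assigned by strand. For Mkks, whose overlap is on the same strand, strand could not separate them. In 10 members the expected counts were not whole, as happens where reads are shared between genes, and these 5 were among them. The shares of all protein-coding genes with such overlaps or such counts were not computed. It is thus not known whether the members differ from other genes in either.

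Most genes of the remaining ciliary machinery were also present, over a wide range of levels. Of 14 other IFT and motor genes, 13 reached 1 TPM in both libraries, with a median of 24.7 TPM. The highest were Dynll1 (1415 TPM in replicate 1, 1306 TPM in replicate 2) and Dynlrb1 (376 and 358 TPM), light chains that other dyneins also use, and Kifap3 (49.98 and 48.9 TPM), the non-motor partner of Kif3a and Kif3b. Lowest were Ttc30a2 (0.43 and 0.32 TPM), Kif17 (1.54 and 1.06 TPM) and Ttc30b (6.18 and 8 TPM). Ttc30a1, Ttc30a2 and Ttc30b are close copies of each other, so their counts are uncertain. All 4 other BBSome-related genes reached 1 TPM, with a median of 43.1 TPM. They were Ccdc28b at 54.5 ± 2.06 TPM, Lztfl1 at 43.7 ± 0.799 TPM, Rabl2 at 42.5 ± 0.0354 TPM and Bbip1, the only BBSome subunit among them, at 20.8 ± 0.184 TPM. All 16 nephronophthisis and other transition zone genes reached 1 TPM, with a median of 24.8 TPM. The highest were Rpgrip1 (60.1 ± 1.88 TPM), Cspp1 (58.8 ± 1.61 TPM) and Iqcb1 (54.2 ± 0.396 TPM), and Anks6 (7.22 ± 0.523 TPM) and Nphp4 (3.41 ± 0.141 TPM) were among the lowest. All 15 measured other basal body genes reached it too, with a median of 24.9 TPM. They ran from Odf2 (72.7 ± 0.177 TPM), Fbf1 (50.6 ± 0.389 TPM) and Cby1 (50.3 ± 0.0849 TPM) down to Cep164 (10.7 ± 0.269 TPM), Rsg1 (6.71 ± 0.530 TPM) and Ttbk2 (6.65 ± 1.15 TPM).

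Genes listed for motile cilia were mostly low, and whether each is particular to such cilia was not tested. Of 20, 8 reached 1 TPM in both libraries, and their median was 0.61 TPM, against 17.7 TPM for the members. Dnah5, a heavy chain of the outer dynein arms, had 0.01 TPM in both libraries, from 2 counts in replicate 1 and 4 counts in replicate 2. Gmnc, a regulator of multiciliated cells, had 0.03 and 0.02 TPM, and Hydin, of the central pair, 0.02 and 0.04 TPM. The highest were Tppp3 (42.5 TPM in replicate 1, 37.0 TPM in replicate 2), Cfap43 (15.6 and 16.5 TPM) and Ccdc40 (11.0 and 12.3 TPM). Of 8 markers of multiciliated cells, 1 reached 1 TPM in both libraries, Tekt1 with 4.25 and 5.28 TPM, and their sum was 6.45 TPM in replicate 1 and 8.83 TPM in replicate 2.

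**Figure D5:**
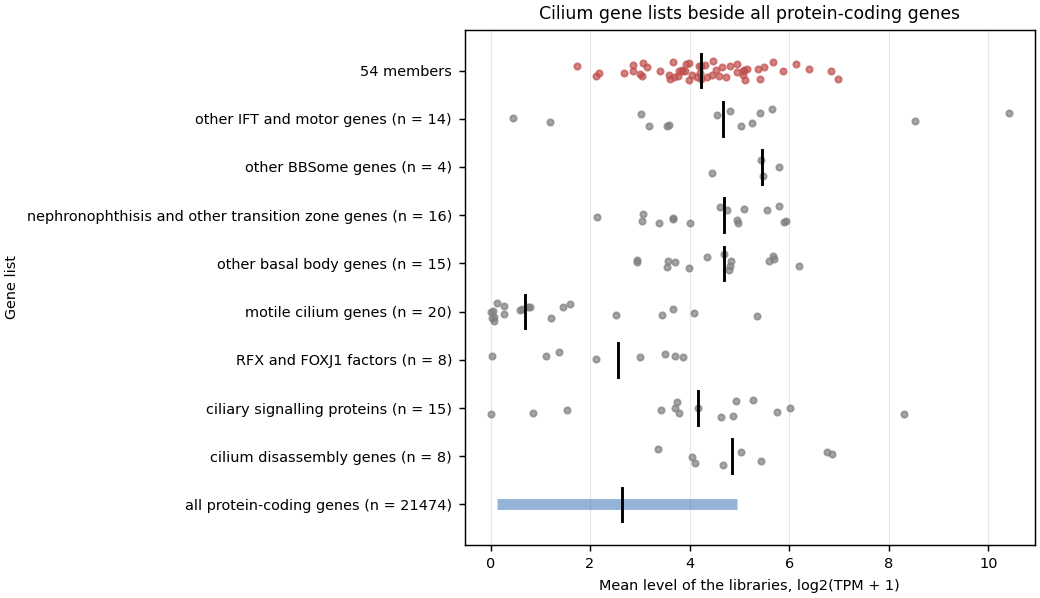
Mean level of each gene in log2(TPM + 1) for the 54 members, 8 lists of other ciliary genes and all 21474 protein-coding genes, with black bars for the medians and a blue bar for the quartiles of all protein-coding genes. The motile cilium genes gather at the low end with a median of 0.61 TPM, while the medians of the other IFT, BBSome-related, transition zone and basal body lists lie between 24.7 and 43.1 TPM.

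RFX factors and Foxj1 are known regulators of ciliary genes, and 6 of the 8 listed reached 1 TPM in both libraries. Rfx3 was the most abundant with 14.5 TPM in replicate 1 and 12.9 TPM in replicate 2, and Rfx7 had 12.09 and 12.04 TPM. Rfx5, better known for antigen presentation genes, had 9.94 and 10.7 TPM. Rfx1 had 7.04 and 7.07 TPM, Rfx2 3.46 and 3.17 TPM, and Rfx4 1.61 and 1.55 TPM. Foxj1, the master factor of motile cilia, had 0.84 and 1.5 TPM, and Rfx6, a factor of the endocrine pancreas, had 0.03 and 0.02 TPM. These levels are in the tissue as a whole and say nothing of binding.

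Of 15 proteins that signal through the cilium, 13 reached 1 TPM in both libraries, with a median of 17.1 TPM. Prkar1a, the regulatory subunit of protein kinase A, was highest with 311 and 323 TPM, followed by Mgrn1, a ubiquitin ligase (64.8 and 62.7 TPM), and the hedgehog transducer Smo (52.5 and 53.96 TPM). Gpr161, an inhibitory ciliary receptor, had 1.88 and 1.96 TPM, and Mchr1, a receptor of neuronal cilia, had 0.77 and 0.83 TPM. Sstr3, another receptor of neuronal cilia, had a count of 0 in both libraries. A 1-sided 95% limit of 3 counts for a count of 0 gave an upper limit of 0.0448 TPM (replicate 1) and 0.0316 TPM (replicate 2). All 8 genes of cilium disassembly reached 1 TPM, with a median of 28.3 TPM. Plk1 (115 TPM in both) and Aurka (108 TPM in both), kinases that also peak in mitosis, were highest, with Hdac6, a tubulin deacetylase, at 42.5 ± 2.65 TPM. Lowest were Tchp (16.2 ± 1.75 TPM), Nedd9 (15.6 ± 0.792 TPM) and Kif24 (9.29 ± 0.460 TPM).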

How the data were processed

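Each library has a deposited gene table and a deposited transcript table, aligned to mm10 with GENCODE M4, per the deposited notes. The aligner is not given in the sources used here. Per the file headers, the deposited values are expected counts (estimated reads, shared ones split between genes), TPM, a posterior mean TPM, FPKM and effective lengths, and the deposited TPM total includes the spike-ins. The RNA input was 10 ng of molecules above 200 bases, per the labels.

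Names, types and coordinates came from GENCODE M21 (GRCm38, the same build), and promoter windows from RefSeq. Of the symbols in the lists of other genes, Cp110 had no match. The members and lists were chosen with earlier results of these data known. With 1 group of 2 libraries no p-value was computed, and the spread given is that between these pools. A pair was called when its log2 TPM ratio was over 1 or under -1 in both libraries. Percentiles are mid-ranks among 21474 protein-coding genes by mean TPM. Counting intervals are exact Poisson intervals at 95%, and for a count of 0 a 1-sided upper limit of 3 counts was used. Values in each library were set down for the highest and lowest of each role group and the members of fixed pairs, and the other members have means, ranges or both values. Also named were the 3 highest and lowest of each list, every RFX factor, the 5 smallest protein-coding shares and each change of leading transcript. A gene that this rule names is not reported here. Retained-intron shares, the limit of 90% of TPM in M21 transcripts and the neighbours just outside 1000 bases were added after seeing the data. The spread was the common dispersion of edgeR 4.0.16 (R 4.3.3) with TMM factors and filterByExpr, for which expected counts were rounded to whole numbers first. The remaining work ran in Python 3.11.15 (numpy 2.4.6, pandas 2.3.3, scipy 1.17.1, matplotlib 3.10.9). The steps were tested on simulated data. Alternatives covered other units, minimums, scalings, backgrounds and each library alone.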

Additional observations from a re-analysis of the deposited data

How the results depend on the processing

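Of 57 alternatives for the main results, 44 left the value within the replicate spread or within 1.5 times a count. All 54 members reached the minimum in each of 6 alternatives, and 0 members differed between the libraries in each of 7. The exceptions follow. The median over the members was 17.2 with the posterior mean TPM, 11.0 in FPKM, which is another scale, and 19.1 TPM with the spike-ins left out. The median percentile was 65.6 with the posterior mean TPM, 63.6 in counts not divided by length, 58.5 among protein-coding genes above 0 TPM and 45.9 among those at a mean of 1 TPM or more. The median protein-coding share over all members, 89.3%, was 86.4% with the posterior mean TPM and 96.5% in expected counts. Motile cilium genes past 2 TPM numbered 5 in place of 8 at 1 TPM. A single promoter arm was in 23 members in place of 5 with the pair. The coefficient of variation was 6.56% with no filter and 6.26% without the spike-ins. The log2 ratio Ift20 over Ift172 turned to -0.27 in counts not divided by length. Dync2li1 over Dync2h1, not called in TPM (0.93), turned there too and was called (-1.30), while B9d1 over Mks1 (-0.85) and IFT-A over IFT-B (0.19) turned without a call. Fuz over Intu lost its call there (1.05), and Tctn1 over Tctn2 lost it with 1 TPM added to both genes (-0.93). Tctn1 over Tctn3 gained a call (-1.21) without replicate 1, and another one (-1.45) when counts were left undivided by length. Apart from what the scales themselves change, the cause was not tested. Depth limits few of the members, whose counts ran from 178 to 2538 in replicate 1 and from 241 to 3508 in replicate 2. No paired analysis was possible because there is 1 group.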
